A study of Mus musculus with 3 samples.

Results

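The Frizzled receptors are a family of 10 mouse genes, Fzd1 to Fzd10, taken here by name. On the array 13 of 39429 non-control probes carried a RefSeq accession of a member, and every member had at least 1 probe. Fzd2, Fzd5 and Fzd7 had 2 probes each. All 13 probes were well above background in null embryoid bodies on all 3 arrays, so no member was lost to the filter on dim signals. The family was measured in embryoid bodies with no working Hopx gene (Hopx-/-, null below) and in embryoid bodies with 1 working copy (Hopx+/-, heterozygous below), both at day 8 of cardiac differentiation. The protein made by Hopx is a small homeodomain factor that does not bind DNA and acts in heart development. Embryoid bodies are stem cell aggregates in which tissues of all germ layers arise, and the medium of both genotypes held VEGF, bFGF, FGF10 and ascorbic acid. The study had 3 biological replicates, each with both genotypes labelled in different dyes on the same 2-colour Agilent array.

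The stem cells came from blastocysts of each genotype and had been grown on feeder cells. The sources used here do not give how many lines stood behind the replicates. The p-values therefore speak only of the variation among these 3 arrays, which may be technical, and genotype and line cannot be told apart. The RNA was that of whole cultures, in which fewer cells of a type and less RNA per cell cannot be told apart. The number of arrays limits the precision. Of 43020 spots other than controls, 61.9% to 72.9% per channel gave signal well above background. Hopx itself had log2 ratios (null over heterozygous) of -2.98, -2.97 and -3.45 on the 3 arrays, the last with its sign turned as described next.

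For replicate 3 the labels and the signals disagree on direction, and why they disagree was not tested. Left as labelled, its Hopx signal would be higher in the null channel, opposite to the genotype and to replicates 1 and 2. By the labels the null RNA was in Cy5 on each of the 3 arrays, but replicate 3 ran opposite to the others. Over 24552 probes, which are not independent, r was -0.903 between replicates 3 and 1, -0.902 between replicates 3 and 2, and 0.939 between replicates 1 and 2. The authors' deposited value table ran against the scanner ratios of replicate 3 (r = -0.941) and with those of replicates 1 and 2 (r = 0.959 and r = 0.951). Every value below has replicate 3 turned as in that table. With it left as labelled, limma called 0 of the 10 receptors, and their mean log2 ratios lay between -0.30 for Fzd4 and 0.53 for Fzd6. Of all genes tested, 0 were then called by limma at adjusted p under 0.05, and 61 had an unadjusted p under 0.05, among them 0 receptors. With replicates 1 and 2 alone, 5 receptors were called higher and 3 lower. Those replicates share a dye orientation, so genotype and dye cannot be told apart wherever replicate 3 is left out, here or below.

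Frizzled proteins span the membrane and bind Wnt ligands through a cysteine-rich domain outside the cell. With the co-receptors Lrp5 and Lrp6 they recruit Dishevelled and stabilise beta-catenin, and some members also act in planar polarity, the alignment of cells within a sheet. In the making of heart muscle, Wnt signalling through beta-catenin first promotes mesoderm and must later fall for cardiac progenitors to mature. The family is grouped by sequence into Fzd1, Fzd2 and Fzd7, into Fzd3 and Fzd6, into Fzd4, Fzd9 and Fzd10, and into Fzd5 and Fzd8.

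The receptors did not move as a group. In null embryoid bodies Fzd10 was 2.92-fold and Fzd6 2.88-fold higher, while Fzd4 was 2.12-fold lower. These are log2 ratios of 1.55, 1.53 and -1.09. With the scanner software's processed signals they were 1.71, 2.16 and -1.12, so the size for Fzd6, the dimmest of these probes in heterozygous samples, depended most on the processing. Smaller rises were seen for Fzd8, Fzd1 and Fzd5, and a smaller fall for Fzd3. Fzd2, Fzd7 and Fzd9 did not pass the test on their brightest probe, and for Fzd2 the 2 probes gave different answers. In all, 5 receptors rose, 2 fell and 3 did not pass (limma, adjusted p under 0.05, n = 3 arrays), with a median log2 ratio of 0.18 against 0.0034 over all 19802 genes tested. Of all genes tested, 60.3% were called, 30.2% higher and 30.1% lower, so that 7 called receptors of 10 (70%) is a share near the background. At least 2-fold, 2 receptors were higher and 1 was lower, where 4.87% of all genes were higher and 6.03% lower. The normalised signals of the genotypes did not overlap for 7 receptors, as for 52.2% of all genes.

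**Figure D1:**
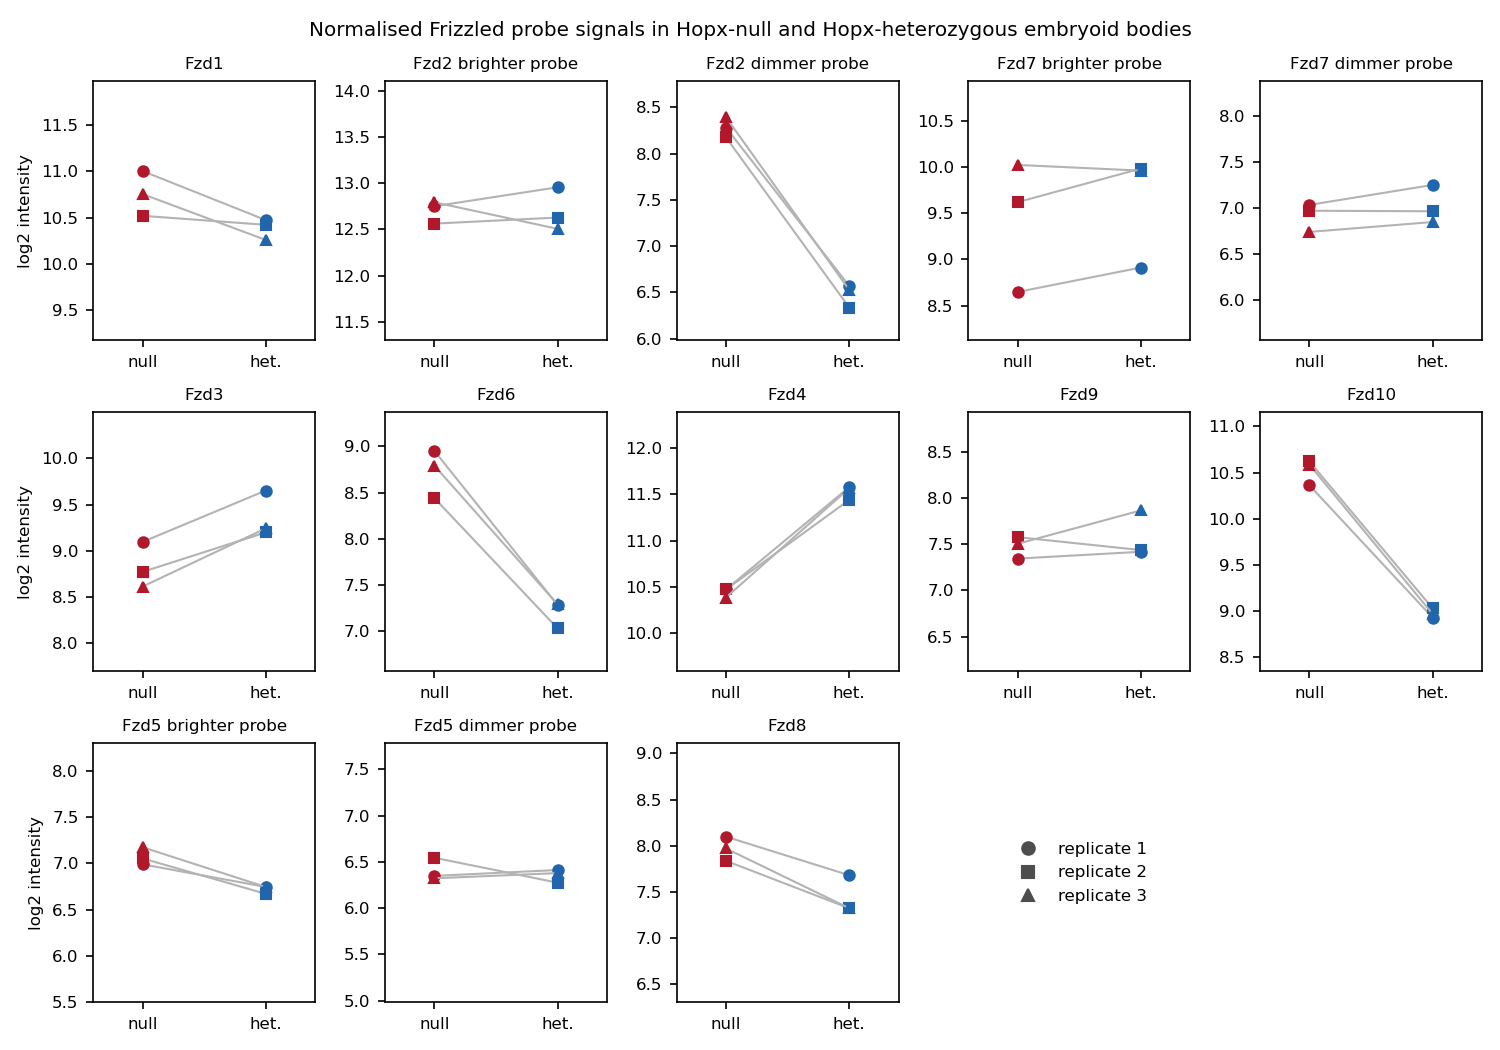
Normalised signal (log2 intensity, vertical axis) of the 13 Frizzled probes in null (red, left) and heterozygous (blue, right) embryoid bodies, 1 panel a probe, each axis covering the same span. Symbols mark the 3 replicates and grey lines join the channels of an array. Fzd6, Fzd10 and the dimmer Fzd2 probe were higher in every null sample, Fzd4 and Fzd3 were lower, and the brighter Fzd7 probe was low in replicate 1 in both genotypes.

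The widest split within the family lay among Fzd4, Fzd9 and Fzd10. Fzd10, a receptor of the posterior embryo and neural tube, had normalised signals of 10.36, 10.62 and 10.58 on the log2 scale in null samples, against 8.93, 9.03 and 8.97 in heterozygous samples. The lowest null sample stood well above the highest heterozygous one. Its log2 ratio was 1.55 (moderated SE 0.09, n = 3 arrays, limma adjusted p = 2.01e-06), at the 98.6th percentile of all genes tested. It did not differ from that of Fzd6 beyond the SE, and the order of these receptors changed between settings. Fzd4, which acts in blood vessel growth and can be switched on by norrin as well as by Wnts, had 10.47, 10.47 and 10.38 in null samples, against 11.58, 11.44 and 11.57 in heterozygous samples. Again no samples overlapped, with the order turned round. Its log2 ratio was -1.09 (SE 0.09, adjusted p = 1.36e-05), the lowest of the family and at the 5.13th percentile. Fzd9, a receptor known from bone and the hippocampus, had 7.34, 7.58 and 7.50 in null samples and 7.42, 7.44 and 7.87 in heterozygous samples, which overlapped. Its ratio of -0.10 (95% interval -0.34 to 0.15, adjusted p = 0.456) did not pass, and the interval leaves out changes as large as those of Fzd10 and Fzd4. On each array the ratio of Fzd10 exceeded that of Fzd4, by 2.54, 2.56 and 2.80. Without replicate 3 the ratios were 1.51 for Fzd10 and -1.04 for Fzd4, both still called, and 0.03 for Fzd9. With median centring in place of loess, which moved the median of all genes to 0.23, Fzd4 stood at -0.70, that is at -0.93 relative to that median, and kept its call.

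The RefSeq promoter table (GRCm38.p6) held 6 of the 10 receptors: Fzd1, Fzd4, Fzd5, Fzd7, Fzd9 and Fzd10. The 250 bases before the start are shown for Fzd10, Fzd4 and Fzd9, because these relatives rose, fell and did not pass. They lie at chr5:128600856-128601105 (plus strand), chr7:89404116-89404365 (plus strand) and chr5:135251048-135251297 (minus strand). Capitals mark the GC box, GGGCGG on either strand, the site of Sp-family factors.
Fzd10: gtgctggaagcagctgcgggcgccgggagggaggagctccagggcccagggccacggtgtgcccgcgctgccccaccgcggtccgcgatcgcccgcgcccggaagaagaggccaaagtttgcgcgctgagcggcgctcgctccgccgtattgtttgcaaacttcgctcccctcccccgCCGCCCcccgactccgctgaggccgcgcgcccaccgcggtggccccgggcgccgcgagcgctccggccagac
Fzd4: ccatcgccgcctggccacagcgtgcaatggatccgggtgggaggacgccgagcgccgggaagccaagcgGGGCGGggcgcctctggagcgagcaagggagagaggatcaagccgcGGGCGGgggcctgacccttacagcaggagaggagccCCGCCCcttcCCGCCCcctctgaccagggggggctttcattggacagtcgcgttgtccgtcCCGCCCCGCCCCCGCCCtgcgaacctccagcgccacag
Fzd9: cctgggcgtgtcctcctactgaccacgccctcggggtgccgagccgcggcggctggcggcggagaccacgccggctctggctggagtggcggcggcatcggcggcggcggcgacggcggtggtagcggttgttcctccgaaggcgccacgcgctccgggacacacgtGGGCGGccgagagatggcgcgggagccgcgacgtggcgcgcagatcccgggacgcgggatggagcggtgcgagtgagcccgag
The stretches held 1 GC box in Fzd10, 7 in Fzd4 (the last 3 in a run in which neighbours share bases or touch) and 1 in Fzd9, and at least 1 GC box was found in 32.7% of the 32851 promoters of the table. They were 76.4%, 72.8% and 76.4% G and C, against a median of 52.4% over all promoters. None of the 3 held CTTTGAT, a core of TCF/LEF sites (3.21% of promoters), TCACACC, a core of T-box sites (3.33%), AGATAA or TGATAA, sites of GATA factors (16.6%), or TATAAA, the TATA box (12.4%), with both strands searched. Among the other 3 promoters, that of Fzd1 stood apart with 51.2% G and C, 0 GC boxes, 2 GATA sites and 1 TATA box, while those of Fzd5 and Fzd7 held 9 and 6 GC boxes.

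Fzd3 and Fzd6, the pair best known for planar polarity, in hair orientation and axon guidance, moved in opposite directions. Fzd6 had normalised signals of 8.95, 8.44 and 8.79 in null samples, against 7.29, 7.03 and 7.29 in heterozygous samples. Every null sample was above every heterozygous one, at a log2 ratio of 1.53 (SE 0.09, adjusted p = 2.61e-06). Fzd3 had 9.10, 8.77 and 8.61 in null samples, against 9.65, 9.20 and 9.24 in heterozygous samples. The highest null sample stayed just below the lowest heterozygous one, and the within-array ratios were closer together, at -0.56, -0.43 and -0.63. Their mean was -0.54 (SE 0.09, adjusted p = 0.000714), a 1.45-fold lower signal. The ratio of Fzd6 exceeded that of Fzd3 by 2.22, 1.84 and 2.13 on the 3 arrays. Without replicate 3 the ratios were 1.54 and -0.49, both called. With median centring Fzd3 stood at -0.23 and lost its call (adjusted p = 0.0936), that is at -0.46 relative to that median.

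Fzd5 and Fzd8, the closely related receptors of yolk sac, eye and forebrain, both rose by less than 2-fold. Fzd8 had normalised signals of 8.10, 7.84 and 7.97 in null samples and 7.68, 7.32 and 7.32 in heterozygous samples. The null culture was higher on all 3 arrays, at 0.53 on average (SE 0.09, adjusted p = 0.000883), a 1.44-fold rise. The brighter Fzd5 probe had 6.99, 7.05 and 7.17 in null samples and 6.74, 6.67 and 6.74 in heterozygous samples. The genotypes did not overlap, though the rise was small at 0.35 (SE 0.09, adjusted p = 0.00658), or 1.28-fold. The dimmer Fzd5 probe did not show it: its array ratios were -0.06, 0.27 and -0.06, with a mean of 0.05 (95% interval -0.17 to 0.27, adjusted p = 0.682). That probe was well above background in heterozygous samples on 2 of the 3 arrays. With the mean over both probes Fzd5 stood at 0.20 and lost its call (adjusted p = 0.0669), and with the scanner software's processed signals the brighter probe stood at 0.98. Without replicate 3 the ratios were 0.46 for Fzd8 and 0.31 for Fzd5, both called.

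Fzd1, Fzd2 and Fzd7 form the group most often tied to beta-catenin signalling in early mesoderm and heart, and none of their brightest probes changed by 2-fold. Fzd1 had normalised signals of 11.00, 10.52 and 10.75 in null samples and 10.47, 10.42 and 10.26 in heterozygous samples. The genotypes did not overlap, but the array ratios were uneven, at 0.53, 0.10 and 0.50. The mean of 0.37 (SE 0.11, adjusted p = 0.0138) passed the test. Fzd1 lost its call without replicate 1 (0.30, adjusted p = 0.0865) and kept it without replicate 3 (0.31, adjusted p = 0.0305). With median centring it stood at 0.75, or 0.52 relative to the median of all genes.

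For Fzd2 the answer depended on the probe. The brighter probe had 12.75, 12.56 and 12.79 in null samples and 12.95, 12.63 and 12.51 in heterozygous samples, which overlapped. Its ratio was 0.01 (95% interval -0.24 to 0.25, adjusted p = 0.968). The dimmer probe had 8.28, 8.18 and 8.39 in null samples, against 6.57, 6.34 and 6.53 in heterozygous samples. It was higher in every null sample, by 1.81 on average (SE 0.08, adjusted p = 8.98e-07) or 3.50-fold, more than any other Frizzled probe. Both probes carry the same accession, and were well above background in both genotypes on all 3 arrays. In heterozygous samples the dimmer probe was still near background, at 51, 49 and 72 over backgrounds of 35, 36.5 and 46 before correction. The size of its ratio is therefore uncertain. The dimmer probe exceeded the brighter by 1.92, 1.91 and 1.58 in ratio on the 3 arrays. Such a gap was uncommon: among 3974 genes with several probes kept, the median gap was 0.28, and 47 genes (1.18%) had one at least as wide as the 1.80 of Fzd2. With the scanner software's processed signals the dimmer probe stood at 3.41 and the brighter at -0.05, and in the authors' deposited table they averaged 1.30 and -0.10. Without replicate 3 they stood at 1.78 and -0.14. The mean over both probes was 0.91 (adjusted p = 6.83e-05). The sources used here do not give where in the transcript the probes lie.

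**Figure D2:**
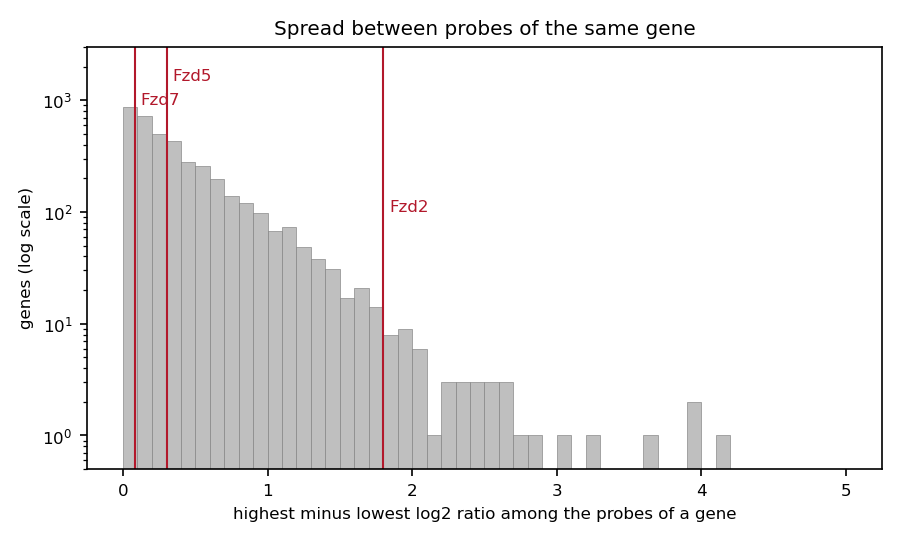
Gap between the highest and the lowest log2 ratio (null over heterozygous) among the kept probes of a gene, for the 3974 genes with several probes; the vertical axis counts genes on a log scale and red lines mark the Frizzled genes with 2 probes. Fzd7 and Fzd5 lie among most genes at 0.08 and 0.30, and Fzd2 lies in the tail at 1.80.

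Fzd7, the Frizzled most closely tied to stem cells and the primitive streak, differed more between replicates than between genotypes. Its brighter probe had normalised signals of 8.65, 9.62 and 10.02 in null samples and 8.91, 9.98 and 9.96 in heterozygous samples. Replicate 1 was low in both genotypes. The range over arrays of the mean of both channels was 1.21, wider than for 98.3% of kept probes. The dimmer probe did not share this, with array means of 7.14, 6.97 and 6.79. Between genotypes the brighter probe gave -0.19 (95% interval -0.42 to 0.04, adjusted p = 0.141) and the dimmer -0.11 (95% interval -0.30 to 0.09, adjusted p = 0.320). Neither passed, and both intervals leave out a 2-fold change. Without replicate 3, whose ratio was 0.06, the brighter Fzd7 probe stood at -0.31 and passed (adjusted p = 0.0138).

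**Figure D3:**
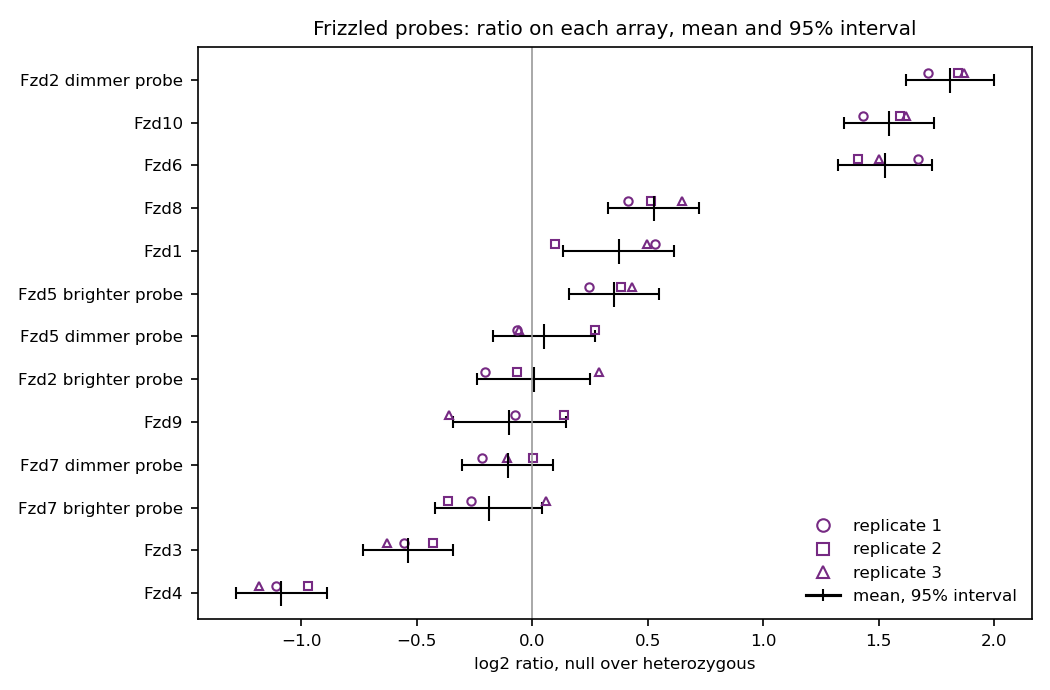
Log2 ratio of null over heterozygous (horizontal axis) for the 13 Frizzled probes, with open symbols for the 3 arrays and black bars for the mean and its 95% interval. The dimmer Fzd2 probe, Fzd10 and Fzd6 lie above 1.3 on all 3 arrays, and Fzd4 lies below -0.9 on all 3.

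Genes whose array ratios lay nearest to those of Fzd10 and Fzd4 were sought among 14063 named genes, by Euclidean distance over the 3 ratios. Nearest to Fzd10 were Bmerb1 (distance 0.07), Cdx1 (0.09), a homeobox factor of the posterior embryo, and Galnt16 (0.09), with mean ratios of 1.53, 1.55 and 1.56. Nearest to Fzd4 were Myl9 (0.02), a myosin light chain of smooth muscle, Fam20b (0.06) and Psca (0.06), with mean ratios of -1.08, -1.05 and -1.08. With 3 arrays these are descriptions of similar size only.

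The genes that act with or on Frizzled receptors moved both ways as well. Of 42 listed, 39 were measured, of which 15 rose, 13 fell and 11 did not pass, with a median ratio of 0.05 against 0.0034 over all genes. The 28 called genes are 71.8% of those measured, where 60.3% of all genes were called (30.2% higher, 30.1% lower), and the counts by role below hold few genes each. The split between directions depended on the normalization: with median centring 21 of the list were called higher and 7 lower, and 8540 and 3008 of all genes. Lgr6, Ror1 and Prickle2 did not reach the filter in either genotype, that is, signal well above background on all 3 arrays. None of 5 measured co-receptors rose and 3 fell, but with median centring 1 was called higher and 0 lower. Lrp6, the main partner of Frizzled in beta-catenin signalling, had 10.72, 10.54 and 11.21 in null samples against 11.70, 11.55 and 11.63 in heterozygous samples, a ratio of -0.80 (SE 0.12, adjusted p = 0.000572). That is the size on its brightest probe, and the mean over its probes was smaller, at -0.46 (adjusted p = 0.00464). Ptk7, a co-receptor of planar polarity, fell by 0.64 (SE 0.11) and Lrp5 by 0.35 (SE 0.09). With median centring without loess Lrp6 and Ptk7 lost their calls, at -0.41 and -0.30, and Lrp5 stood at 0.01.

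Tspan12, a tetraspanin that helps Fzd4 respond to norrin, was lower in null cultures, as was Fzd4. It had 9.44, 9.67 and 10.09 in null samples, against 10.32, 10.79 and 11.14 in heterozygous samples. The within-array ratios of -0.89, -1.12 and -1.05 gave a mean of -1.02 (SE 0.09, adjusted p = 2.07e-05), close in size to the -1.09 of Fzd4. Ndp, which encodes norrin, was not well above background in heterozygous samples on any array and was at least 1.44-fold higher in null samples (adjusted p = 0.000509). Such a bound sets the dim channel to the higher of its own signal and the lowest signal well above background, and is open to dye bias. It holds for the main processing only. Ndp lost its call in the authors' deposited table (0.14, adjusted p = 0.415) and stood at 3.01 with processed signals.

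Among genes that set how much Frizzled stays on the surface, both ligases that remove it were called lower and the 4 secreted R-spondins higher, though the calls of Znrf3 and Rspo4 were not stable. Of the 8 measured in this role 5 rose and 2 fell, where 30.2% of all genes were called higher and 30.1% lower. Rnf43, a ubiquitin ligase that marks Frizzleds for removal, had 7.68, 7.81 and 7.74 in null samples, against 9.58, 9.88 and 10.00 in heterozygous samples. That was a 4.23-fold lower signal (ratio -2.08, SE 0.09, adjusted p = 8.33e-07). Its relative Znrf3 stood at -0.43 (SE 0.09, adjusted p = 0.00345), and at -1.12 with processed signals. Znrf3 lost its call in the authors' deposited table (-0.27, adjusted p = 0.104) and with the ordinary t statistic (adjusted p = 0.0911). Rspo2, an R-spondin that holds these ligases back, rose by 1.77 (SE 0.11) and Rspo1 by 0.99 (SE 0.09). Rspo2 was well above background in heterozygous samples on 1 array and stood at 3.89 with processed signals. Rspo4 was so on none, where the bound was at least 1.21-fold (adjusted p = 0.00813). Rspo4 lost its call in the authors' deposited table (0.09, adjusted p = 0.573), with median centring (0.23, adjusted p = 0.106), with the ordinary t statistic (adjusted p = 0.0580) and without replicate 1 (0.29, adjusted p = 0.0613). Lgr5, of the same role, rose by 0.99 (SE 0.12, adjusted p = 0.00016) and stood at 2.02 with processed signals. Lgr4 stood at 0.05 and did not pass (adjusted p = 0.597).

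Inside the cell, 4 of 10 genes of Dishevelled and the destruction complex fell and 1 rose, but with median centring 3 were called lower and 6 higher. Dvl3 fell by 1.16 (SE 0.12, adjusted p = 6.27e-05), with array ratios of -1.52, -0.93 and -1.02, while Dvl1 and Dvl2 stood at -0.04 and 0.02 and did not pass. Gsk3b, the kinase that marks beta-catenin, fell by 0.74 (SE 0.08) and Apc, its scaffold, by 0.50 (SE 0.08). With median centring Gsk3b stood at -0.31, and with processed signals Apc stood at -1.03. With the mean over its probes Gsk3b stood at -0.44 (adjusted p = 0.00152). Ctnnb1, beta-catenin itself, stood at 0.09 and did not pass (adjusted p = 0.415). With median centring Ctnnb1 (0.50, adjusted p = 0.00571), Dvl2 (0.40, adjusted p = 0.0419) and Dvl1 (0.35, adjusted p = 0.0255) were called higher. Of 8 planar polarity partners 4 rose and 2 fell, again near the 60.3% called over all genes, and 5 and 1 with median centring. These calls depended on the probe rule too. Vangl1 did not pass on its brightest probe (-0.22, adjusted p = 0.0529) and passed with the mean over its probes (-0.68, adjusted p = 0.00017). Celsr2 passed on its brightest probe (0.28, adjusted p = 0.0324) and lost its call with that mean (0.11, adjusted p = 0.270). Celsr3, a cadherin that works with Fzd3 in axon tracts, had 9.26, 9.41 and 9.60 in null samples, against 7.97, 7.65 and 7.74 in heterozygous samples. It was 3.10-fold higher, whereas Fzd3 was lower. Daam2 rose by 0.80 (SE 0.10) and its relative Daam1 fell by 0.75 (SE 0.10), both formins that act below Dishevelled.

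Soluble proteins with a Frizzled-like Wnt-binding domain were mostly higher in null samples, led by Sfrp1. Sfrp1 had 10.22, 9.88 and 10.00 in null samples, against 7.57, 7.49 and 7.46 in heterozygous samples, a 5.76-fold rise. Of 5 such genes, which are few, 3 rose and 1 fell, where 30.2% of all genes were called higher and 30.1% lower. Sfrp2 stood at 1.93 (SE 0.09) and Sfrp4 at 0.62 (SE 0.09, and 2.81 with processed signals), while Frzb did not pass. The Sfrp4 probe was well above background in heterozygous samples on 2 of the 3 arrays. With median centring the 1 that fell, Sfrp5, lost its call (-0.13, adjusted p = 0.332). Smo, the Hedgehog transducer and closest relative of the family, stood at 0.25 (SE 0.09, adjusted p = 0.0440) and lost that call under 9 of 13 other settings and turned under 1, for example without replicate 3 (0.15, adjusted p = 0.184).

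**Figure D4:**
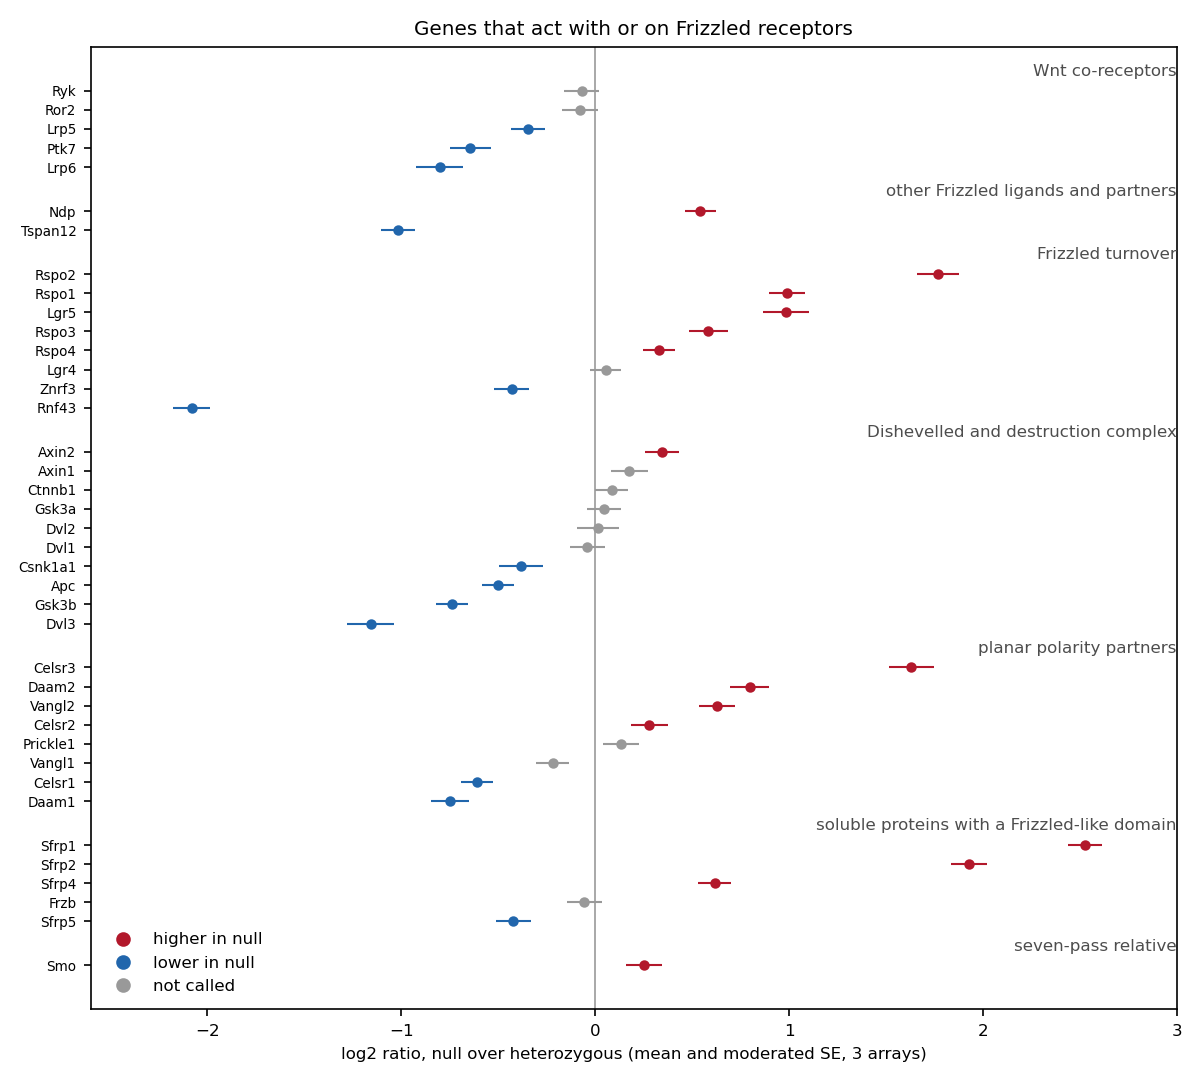
Log2 ratio of null over heterozygous (horizontal axis) for the 39 measured genes that act with or on Frizzled receptors, grouped by role, with the mean and moderated SE over 3 arrays; red genes were called higher in null embryoid bodies, blue lower, grey not called. The R-spondins lie right of 0 and the ligases Rnf43 and Znrf3 left of it, and Ndp and Rspo4 were not well above background in heterozygous samples.

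Markers of many cell types also differed between the genotypes, and their part in the receptors' differences was not tested. The marker lists were chosen with earlier results of these data known. Of all genes tested, 30.2% were called higher and 30.1% lower. All 8 cardiac muscle markers, Myh6 and Myh7 among them, were lower in null samples, with a summed signal of 23412 to 33338 in null and 215450 to 267876 in heterozygous samples, and so were all 8 visceral endoderm markers, with Afp and Ttr (14812 to 20993 against 113266 to 138691). Higher in null samples were all 7 measured early mesoderm markers, with T and Mesp1 (6133 to 6712 against 1677 to 2065), all 7 blood markers, with Hba-x and Hbb-bh1 (136025 to 162432 against 34796 to 62338) and all 6 measured neuroectoderm markers, with Sox1 and Sox2 (8794 to 10832 against 2235 to 2591). So were 6 of 7 endothelial markers, with Pecam1 and Cdh5 (8939 to 10854 against 5895 to 8764, with Sox17 lower), 5 of 6 pluripotency markers, with Pou5f1 and Nanog (17057 to 23157 against 5815 to 6685, with Zfp42 lower) and 5 of 7 fibroblast and feeder markers, with Col1a2 but not Col1a1 (51552 to 73272 against 21866 to 36659). Sox1 itself rose by only 0.25 (limma adjusted p = 0.0458). Another Nanog probe ran the other way, at -0.34. Sox2 stands on both the neuroectoderm and the pluripotency list. Tnnt2, of cardiac muscle, and Col1a1 had no value in replicate 1, so the summed signals of that replicate leave them out. T and Mixl1, of early mesoderm, were not well above background in heterozygous samples on any array. All cardiac muscle and visceral endoderm markers were well above background in both genotypes.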

How the data were processed

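Spot intensity values of both channels came from Agilent Feature Extraction, whose version is 11.5.1.1 in the deposited files and 8.5.1.1 per the submitters' processing notes. A value table that the authors deposited was read as log2 ratios with replicate 3 turned. Its column medians were -0.10, -0.11 and 0.07, its slopes on scanner ratios of bright probes 0.94, 0.94 and -0.93, and its normalization and centring are not known. The scanner software's log10 ratio, deposited per the file headers, served only to check the direction of that table.

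With limma 3.58.1 in R 4.3.3, foreground medians were background-corrected by normexp (offset 50) and log2 ratios normalized by loess within arrays, with control and outlier spots at weight 0 and left out afterwards. Spots of a probe were averaged. The filter asked for signal well above background on all 3 arrays in either genotype's channel, and for a ratio on at least 2, and kept 24552 of 39429 probes. Mean ratios were tested for a difference from 0 (lmFit and eBayes, two-sided) and adjusted by Benjamini-Hochberg over the kept probes. A gene was given its brightest probe. SEs and 95% intervals are moderated. Signals per channel are log2 intensities after Aquantile, which are not compared between probes, and summed signals are sums of linear intensities. As turned, replicate 3 holds the other dye orientation, and dye effects cancel only in part. All 3 arrays came from 1 slide and 1 scan.

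Names came from matching each probe's accession, version removed, to a RefSeq table (GRCm38.p6), and 71.1% of probes had a match. Because the file headers place the array design on mm9, coordinates are given only for the RefSeq promoters. The members and lists were chosen with earlier results of these data known. Named are all receptors, up to 3 called genes with the largest change in each role of the Wnt reception list (or the 1 with the smallest adjusted p), and the 3 genes nearest in ratio to the highest and the lowest receptor. Of each marker list the first 2 genes are named. Exceptions within a marker list, Znrf3, Rspo4, Lgr4, Lgr5, Ctnnb1, Dvl1, Dvl2, Vangl1, Celsr2, Sfrp5 and Frzb were added after their values were seen. Alternatives changed the background correction, normalization, filter, variance, direction of replicate 3, dye term, replicates, pairing, probe rule and source of values.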

Additional observations from a re-analysis of the deposited data

How the results depend on the processing

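Fzd4, Fzd6 and Fzd10 kept their call and direction under 12 of 13 alternatives, the exception being replicate 3 as labelled. Without a replicate in turn, 4 to 5 receptors were called higher and 2 to 3 lower, 12 to 14 and 11 to 13 of the Wnt reception list, and 4968 to 5869 and 4866 to 6005 of all genes. With each probe's own variance in place of the moderated one (ordinary t statistic), 2 receptors were called higher and 1 lower (Fzd1, Fzd3, Fzd5 and Fzd8 lost their calls), 5 and 4 of the list, and 1964 and 2034 of all genes. In the authors' deposited values, receptors called higher were 3 (Fzd1 and Fzd5 were lost), 9 of the list and 3910 of all genes. Median centring without loess left 1 receptor lower, 7 of the list and 3008 genes. It called 6 receptors higher, 21 of the list and 8540 genes, with Fzd2 gained at 0.44 (adjusted p = 0.0153). It turned Csnk1a1 (0.0336) and Lrp5 (0.0100), whose calls were lost, Dvl1 (0.35) and Ryk (0.34), which were then called, and, without a call under either, Vangl1 (0.21), Ror2 (0.32), Frzb (0.26), Fzd7 (0.13) and Fzd9 (0.07). With replicate 3 as labelled, 0 receptors, 0 of the list and 0 genes were called in either direction, and Smo stood at -0.0465. What caused these differences between settings was not tested. Fzd1 was lost also with processed signals (0.37, adjusted p = 0.0675). With the channels as 6 samples and no replicate block, Fzd1 was lost (0.37, adjusted p = 0.0739), and 4 receptors were higher and 2 lower. Of 515 further results on single genes of the list and Hopx, 410 kept their side of the threshold and their sign, 14 turned in sign, called under neither, 78 lost a call, 8 gained one, and the other 5 are the turned values of Csnk1a1, Dvl1, Lrp5, Ryk and Smo. Signal over background limits what the dimmer Fzd5 probe and, in heterozygous samples, the dimmer Fzd2 probe can show.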
